A study of Homo sapiens with 3 samples.

Results

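The Krüppel-like factor (KLF) genes described here are KLF2, KLF3, KLF4, KLF5, KLF6, KLF7, KLF9, KLF10, KLF11 and KLF13, which were chosen by name and are 10 of 19974 protein-coding genes on chromosomes 1 to 22 and X. For each gene, the peaks of both histone marks in its annotated span and in the 100 kb on either side were taken. The cells were HCC1599, an established breast cancer line that is triple-negative (without estrogen receptor, progesterone receptor or HER2 amplification), described by the submitters as MARCO-TST positive, and no treatment was labelled. The series had 3 samples of this line: 1 ChIP-seq library with an H3K27ac antibody from Active Motif, 1 with an H3K4me3 antibody from Cell Signaling Technology, and 1 input without antibody. There were 72894 usable peaks of H3K27ac and 32043 of H3K4me3, and read depth and gene copy number were not known. With 1 library per mark nothing has a replicate check, no p-value is given, and a place without a peak is a place where none was called.

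KLF proteins bind GC-rich and CACCC-type DNA through zinc fingers at their C-terminal end, and differ mainly in the N-terminal part that recruits cofactors. The family is usually divided into group 1, repressors that bind CtBP, group 2, mostly activators that bind acetyltransferases, and group 3, which bind the corepressor SIN3A. Of the genes described, KLF3 is in group 1, KLF2, KLF4, KLF5, KLF6 and KLF7 are in group 2, and KLF9, KLF10, KLF11 and KLF13 are in group 3. In epithelia KLF5 is known from proliferating basal cells and KLF4 from differentiating ones, and KLF5 is often discussed in basal-type breast cancer. H3K4me3 marks promoters, and H3K27ac marks active promoters and enhancers.

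The promoter sequences of 5 of these genes show the settings in which the marks were found. Each is a RefSeq window (GRCh38.p14) from 250 bases before to 50 bases after a listed start, read 5′ to 3′ on the gene's strand. Capitals mark every match to CCNCNCCC on either strand, the core shared by CACCC and GC boxes. Some matches overlap the GC box GGGCGG, but other GC boxes, as in KLF2, lie outside the capitals. KLF2 and KLF4 are shown as the genes with strong H3K4me3 and weak H3K27ac at the start, KLF6 as a gene with long peaks of both, KLF5 for its pair of starts, and KLF9 as an AT-rich start under both marks.
KLF2, chr19:16324576-16324875, plus strand: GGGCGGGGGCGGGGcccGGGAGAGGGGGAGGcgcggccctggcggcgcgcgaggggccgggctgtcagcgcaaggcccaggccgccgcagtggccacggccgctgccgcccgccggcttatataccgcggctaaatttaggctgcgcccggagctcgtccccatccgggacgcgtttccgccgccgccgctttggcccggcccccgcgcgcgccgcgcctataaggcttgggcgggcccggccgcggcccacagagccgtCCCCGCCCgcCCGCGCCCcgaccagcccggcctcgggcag
KLF4, chr9:107489720-107490019, minus strand: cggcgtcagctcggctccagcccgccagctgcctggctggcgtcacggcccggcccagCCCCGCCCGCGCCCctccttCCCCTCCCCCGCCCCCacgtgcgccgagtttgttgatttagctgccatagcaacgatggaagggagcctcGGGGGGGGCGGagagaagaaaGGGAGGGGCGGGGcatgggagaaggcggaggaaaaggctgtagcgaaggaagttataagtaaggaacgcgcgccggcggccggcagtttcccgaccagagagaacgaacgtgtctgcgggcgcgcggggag
KLF5 upstream start, chr13:73054726-73055025, plus strand: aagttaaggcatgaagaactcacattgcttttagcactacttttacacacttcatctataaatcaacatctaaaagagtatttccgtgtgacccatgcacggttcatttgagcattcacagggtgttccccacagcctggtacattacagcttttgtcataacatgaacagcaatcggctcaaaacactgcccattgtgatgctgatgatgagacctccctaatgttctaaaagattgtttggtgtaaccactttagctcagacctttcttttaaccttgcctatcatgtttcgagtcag
KLF5 downstream start, chr13:73058755-73059054, plus strand: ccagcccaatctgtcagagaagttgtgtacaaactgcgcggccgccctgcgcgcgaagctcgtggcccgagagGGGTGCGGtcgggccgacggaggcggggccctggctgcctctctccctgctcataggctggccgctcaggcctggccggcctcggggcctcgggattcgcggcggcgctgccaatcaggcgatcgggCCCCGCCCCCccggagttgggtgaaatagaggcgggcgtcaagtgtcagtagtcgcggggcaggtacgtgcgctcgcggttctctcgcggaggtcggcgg
KLF6, chr10:3785160-3785459, minus strand: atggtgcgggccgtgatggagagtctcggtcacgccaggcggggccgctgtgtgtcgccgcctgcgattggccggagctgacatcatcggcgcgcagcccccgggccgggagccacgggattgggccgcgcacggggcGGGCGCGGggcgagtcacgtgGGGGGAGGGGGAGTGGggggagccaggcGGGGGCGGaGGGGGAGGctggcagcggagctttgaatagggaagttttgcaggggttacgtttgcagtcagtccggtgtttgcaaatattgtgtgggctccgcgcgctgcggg
KLF9, chr9:70414608-70414907, minus strand: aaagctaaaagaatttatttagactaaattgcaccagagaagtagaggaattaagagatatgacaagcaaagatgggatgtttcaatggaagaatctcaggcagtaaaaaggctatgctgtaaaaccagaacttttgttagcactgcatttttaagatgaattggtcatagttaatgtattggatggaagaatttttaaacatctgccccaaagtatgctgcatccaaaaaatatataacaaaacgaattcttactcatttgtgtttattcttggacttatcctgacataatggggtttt

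These windows differ in base composition. GC content was 80.7% at KLF2, 69.0% at KLF4, 70.7% at KLF6 and 71.3% at the downstream KLF5 start, against 40.7% at the upstream KLF5 start and 32.7% at KLF9. The median over 34961 RefSeq windows was 58.7%. Of the 4 KLF7 windows, not printed, those at 207134137 and 207167246 were also AT-rich, with 43.0% and 42.7%. The table listed 13 starts for 8 of the 10 genes, and KLF3 and KLF10 have no entry. Of the 13 windows, 11 held CCNCNCCC, which 56.3% of all windows hold, and 8 held GGGCGG, which 45.0% hold. The windows without CCNCNCCC were those of KLF9 and of the upstream KLF5 start. CCAAT was in 6 of 13 (34.6% of all windows), TATAAA in 1 (11.5%), the E-box CACGTG in 4 (7.27%), the cyclic AMP element TGACGTCA in 1 (1.85%), the AP-1 site TGANTCA in none (7.68%) and CCACACCC in none (3.29%), with both strands searched for each.

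All 10 genes carried both marks at a start, meaning that a peak of each overlapped the 1 kb on either side of a listed start. For KLF3 and KLF10 either end of the gene was used, as for every gene without a listed start. Over all protein-coding genes 57.7% had both, and 2.27% had H3K27ac only, which none of the 10 had. The H3K4me3 peaks at all 10 starts had a deposited score of at least 3100, the value at which the authors' score piles up, and 54.0% of protein-coding genes had such a peak. H3K27ac differed more among the genes: 6 of 10, namely KLF3, KLF5, KLF6, KLF7, KLF9 and KLF10, had an H3K27ac peak of that score at a start, against 8.04% of protein-coding genes. These 6 had both marks at 3100 or more, as did 7.7% of protein-coding genes. KLF13 scored 1723 and KLF11 1231, and KLF2 and KLF4 scored 60.6 and 67.3. H3K4me3 of at least 3100 with H3K27ac below 100 or absent was found at KLF2 and KLF4, so in 2 of 10, and at 7.31% of protein-coding genes. Among the protein-coding genes with H3K4me3 of at least 3100, as at all 10 members, 13.6% had H3K27ac below 100 or absent. H3K27ac of at least 3100 was found at 14.3% of them. The score does not order peaks that share the value 3100.

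The length of the peaks at the starts separated the genes further. The summed length of H3K4me3 peaks touching a start window ran from 1969 bp at KLF2 to 11785 bp at KLF6, with a median of 6083.5 bp, against a median of 3932 bp over all genes with both marks. For H3K27ac it ran from 675 bp at KLF2 to 12658 bp at KLF6, with a median of 5335.5 bp against 2326 bp. KLF2 and KLF4 were the shortest in H3K27ac, and by this sum KLF11 came next with 3516 bp. KLF10 had 4920 bp, which enters the median above, but this joins peaks at both ends of the gene. Of it, 2925 bp lay at the end with H3K4me3 and 1995 bp at the other. By the H3K4me3 end alone KLF10 would come before KLF11. Group 2 held both extremes, KLF2 and KLF4 at the low end and KLF6 and KLF7 at the high end. By these sums the 4 genes of group 3 lay close together, from 3516 to 5751 bp of H3K27ac and from 4733 to 6345 bp of H3K4me3. With only its H3K4me3 end counted, KLF10 would lower the first range to 2925 bp. Genes with more listed starts, 4 at KLF7 and 2 each at KLF5 and KLF11, have more windows that a peak can touch. The KLF7 sum joins H3K27ac peaks of 2168 and 3704 bp at its start at 207134137 to peaks of 5026 and 1659 bp at its other starts. At those other starts H3K4me3 had 5281 and 2626 bp, so H3K27ac was the shorter mark there.

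**Figure D1:**
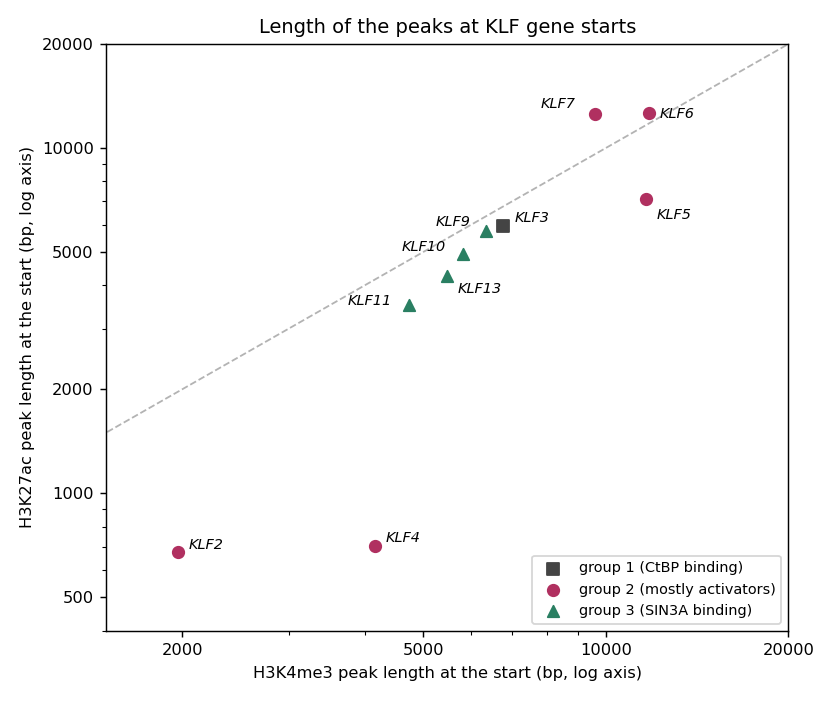
Summed length of the H3K4me3 peaks (horizontal, bp, log axis) and H3K27ac peaks (vertical, bp, log axis) that touch the start of each KLF gene, 1 point per gene from 1 library per mark; the dashed line marks equal lengths. KLF2 (675 bp of H3K27ac) and KLF4 (704 bp) lie far below the line, and only KLF6 and KLF7 lie above it. The KLF10 point sums H3K27ac peaks at both ends of the gene. The KLF7 point sums peaks at distant starts, and without the start at 207134137 it would lie below the line.

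KLF5 encodes an activator of proliferation genes in basal epithelium and lies at positions 73054976 to 73077538 of chromosome 13, on the plus strand. Its upstream start, which is also the lower annotated end, was covered by neither mark. The nearest H3K27ac peak on the gene side began 473 bp into the gene and scored 39.3, and the nearest H3K4me3 peak began 931 bp in and scored 139. The downstream start, at 73059005, was covered by both. There H3K4me3 formed a peak of 10500 bp, from 73057125 to 73067624, with a score of 3100. H3K27ac was split around the same start into peaks at 73056216 to 73058795, scoring 704, and at 73058969 to 73062761, scoring 3100, with 173 bp between them. The base at the start lay 36 bp inside the second of these peaks. Of the printed windows, H3K4me3 covered all 300 bases of the GC-rich downstream one and H3K27ac 127, and neither covered a base of the AT-rich upstream one.

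Inside KLF5 the acetylation went on past the start. H3K27ac peaks at 73063837 to 73068648 (4812 bp, score 273) and 73071974 to 73074954 (2981 bp, score 285) followed within the gene, and an H3K4me3 peak at 73071734 to 73074902 (score 103) lay over the latter. In all, 5 H3K27ac peaks touched the KLF5 span and covered 14895 of its 22563 bp, and 3 H3K4me3 peaks covered 14807 bp. Among the protein-coding genes KLF5 stood at percentile 99.2 for H3K4me3 length and 96.3 for H3K27ac length at the start. Of the 10 KLF genes it was behind KLF6 alone in H3K4me3 length (11638 against 11785 bp). In H3K27ac length (7102 bp), summed over all listed starts, it was behind KLF6 and KLF7.

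KLF6, an early-response gene of injury and growth factor signalling, lies at 3775996 to 3785209 of chromosome 10 on the minus strand. It was covered by both marks over its whole 9214 bp. H3K4me3 formed 1 peak of 11785 bp from 3775591 to 3787375, and H3K27ac formed peaks of 10722 bp (3774593 to 3785314) and 1936 bp (3785469 to 3787404), all with a score of 3100. The 154 bp between the H3K27ac peaks began 105 bp upstream of the start. KLF7, known from neurons, lies at 207074137 to 207173851 of chromosome 2 on the minus strand, and has 4 listed starts. Of these, 3 lay near each other at 207165948, 207166856 and 207167246, and both marks broke between the lowest of them and the other 2. The H3K27ac peaks there, 5026 and 1659 bp, and the H3K4me3 peaks, 5281 and 2626 bp, all scored 3100, with 161 and 152 bp between the members of each pair. The fourth start, at 207134137, lay under a weaker pair, 3704 bp of H3K27ac (score 844) and 1676 bp of H3K4me3 (score 131). Neither annotated end of KLF7 had a peak within 1 kb.

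KLF2 and KLF4 had strong H3K4me3 and little H3K27ac. They stood at percentiles 39.1 and 74.0 of all protein-coding genes for H3K4me3 length and at 43.3 and 43.6 for H3K27ac length. These percentiles rank genes without a peak at the start below every gene with one. Of all protein-coding genes 27.8% had neither mark there, 12.3% H3K4me3 only and 2.27% H3K27ac only. The H3K27ac percentiles are therefore low among genes with such a peak. Genes with both marks had a median H3K27ac length of 2326 bp. KLF2 is known from endothelium under flow and from resting T cells, and lies at 16324826 to 16328685 of chromosome 19. Its H3K4me3 peak of 1969 bp (16323694 to 16325662) scored 3200, and the H3K27ac peak inside it, of 675 bp (16324623 to 16325297), scored 60.6. Another gene, KLF2-DT, has an end within 2.5 kb of both peaks, so they cannot be given to KLF2 alone. KLF4, a pluripotency factor that acts in the differentiating epithelium of skin and gut, lies at 107484852 to 107489769 of chromosome 9 on the minus strand. Its H3K4me3 peak of 4154 bp (107486769 to 107490922) covered 3001 of the 4918 bp of the gene. H3K27ac had 1 peak of 704 bp (107489858 to 107490561) whose nearer edge lay 89 bp upstream of the start and which extended away from the gene, so that no H3K27ac peak lay inside KLF4. The start of KLF2 by contrast was covered by its H3K27ac peak. With a score of at least 100 required, both genes carried H3K4me3 only, and 8 of 10 carried both marks.

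**Figure D2:**
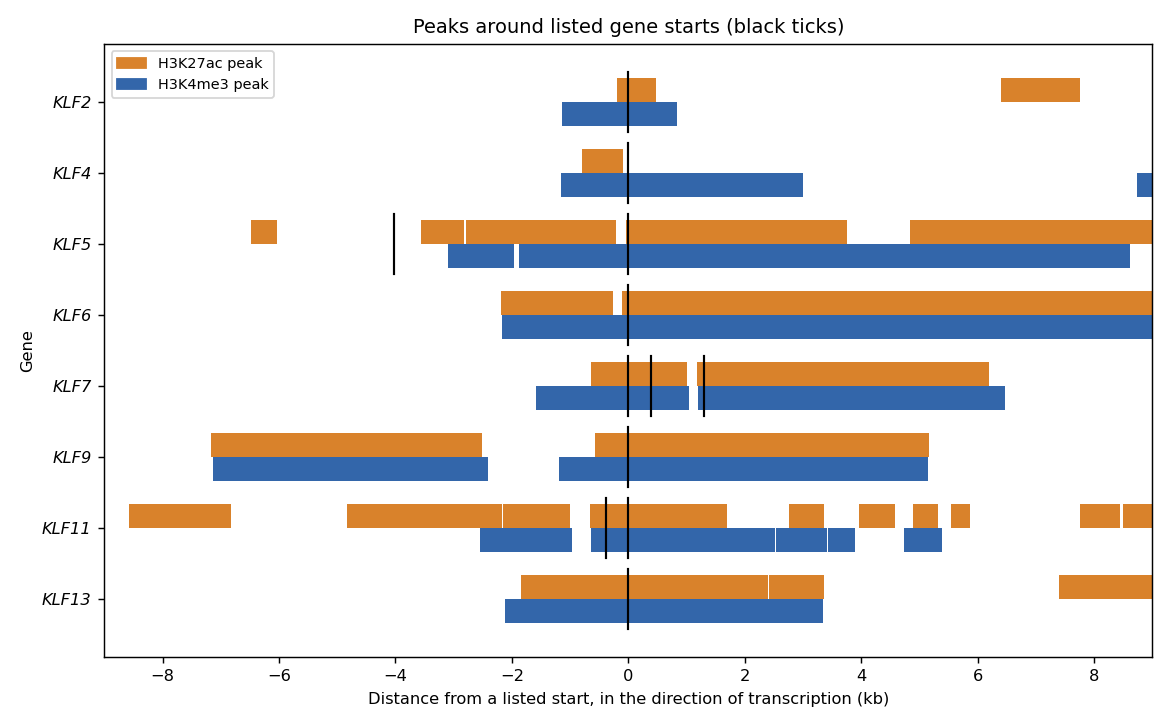
H3K27ac (orange, above) and H3K4me3 (blue, below) peaks of the 8 KLF genes with listed starts, in kb from a listed start in the direction of transcription; black ticks are listed starts, and the zero is the downstream start of KLF5 and KLF11 and the most upstream of KLF7. KLF6 peaks run past the right edge, and the upstream KLF5 tick lies in neither mark.

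KLF3, which encodes a repressor that recruits CtBP, lies at 38664199 to 38701517 of chromosome 4. Its lower-coordinate end carried an H3K27ac peak of 5945 bp (38662268 to 38668212) and H3K4me3 peaks of 2009 and 4767 bp with 22 bp between them, all scoring 3100, and its higher-coordinate end carried neither mark. The antisense gene KLF3-AS1 ends in the same place, so these peaks cannot be given to either gene. A second H3K27ac peak of 7189 bp (38669179 to 38676367, score 981) lay farther inside the gene, over a weak H3K4me3 peak (score 116).

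In group 3, the starts of KLF9 and KLF13 each lay in 1 peak of each mark. KLF9, which is induced by thyroid hormone and glucocorticoids, lies at 70384604 to 70414657 of chromosome 9 on the minus strand. Its start was covered by 6345 bp of H3K4me3 and 5751 bp of H3K27ac, both reaching about 5 kb into the gene (5149 and 5169 bp), although the printed window has only 1 CG dinucleotide. A further block of both marks, 4717 bp of H3K4me3 and 4663 bp of H3K27ac and again at 3100, lay upstream of the start, 2412 bp from it for H3K4me3 and 2508 bp for H3K27ac. It lay inside KLF9-DT, a lncRNA gene that overlaps the KLF9 start. Another shared site, with 4119 bp of H3K27ac and a score of 1232, lay 63167 bp from the gene. KLF10 and KLF11 are TGF-beta-inducible early genes. At KLF10, at 102648784 to 102655725 of chromosome 8, a peak of 5822 bp of H3K4me3 and one of 2925 bp of H3K27ac, both at 3100, lay over the higher-coordinate end, and a weak H3K27ac peak (score 60.9) lay at the other end. Another gene, LOC101927245, has an end within 2.5 kb of the peaks at 3100, so they cannot be given to KLF10 alone.

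At KLF11, at 10043550 to 10054836 of chromosome 2, the listed starts were covered by both marks. Upstream of them the marks were broken by a gap of 341 bp in H3K27ac and 332 bp in H3K4me3. Both gaps took in the adjoining ends of KLF11 and KLF11-DT, a lncRNA gene. On the KLF11 side H3K27ac had 2352 bp (score 1231) and H3K4me3 3157 bp (score 3100). Downstream, 7 narrow H3K27ac peaks with scores from 31.6 to 114 lay along the rest of the gene. KLF13, known from T cells and heart, lies at 31326835 to 31435665 of chromosome 15. Its start was covered by 5472 bp of H3K4me3 (score 3100) and 4249 bp of H3K27ac (score 1723). The strongest H3K27ac peak of the KLF13 gene was not at the start but 22484 bp inside it, at 31349319 to 31354701, with 5383 bp and a score of 3100, and H3K4me3 covered 29.5% of it.

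The 10 windows held 162 H3K27ac and 70 H3K4me3 peaks. Of the H3K27ac peaks 61 overlapped H3K4me3 by at least 1 bp (37.7%, exact Clopper-Pearson 95% interval 30.2 to 45.6, for counting error only), close to the 34.8% of the whole list. Of the H3K4me3 peaks 63 of 70 overlapped H3K27ac (90.0%, 80.5 to 95.9), against 71.0% of the whole list. KLF11 alone gave 26 of these H3K4me3 peaks, 23 of them overlapping H3K27ac. Neighbouring peaks of a window are not independent, so neither interval tests a difference from the whole list. The number of H3K27ac peaks was 33 at KLF11, 25 at KLF13, 22 at KLF5, 16 at KLF6, 15 at KLF7, 13 at KLF3, 12 each at KLF4 and KLF10, 8 at KLF2 and 6 at KLF9. The median of the 10 was 14, against 10 over all protein-coding genes and 13 over those with both marks at the start, and 8 of 10 had at least 10 peaks, against 53.0%. H3K4me3 peaks ranged from 2 at KLF2 to 26 at KLF11, with a median of 5, which is also the median of all genes. KLF4 was the gene whose marks overlapped least: 1 of its 12 H3K27ac peaks lay on H3K4me3, and an H3K4me3 peak of score 2315 at 107465021 to 107466786, near the end of LINC01509, had no H3K27ac.

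**Figure D3:**
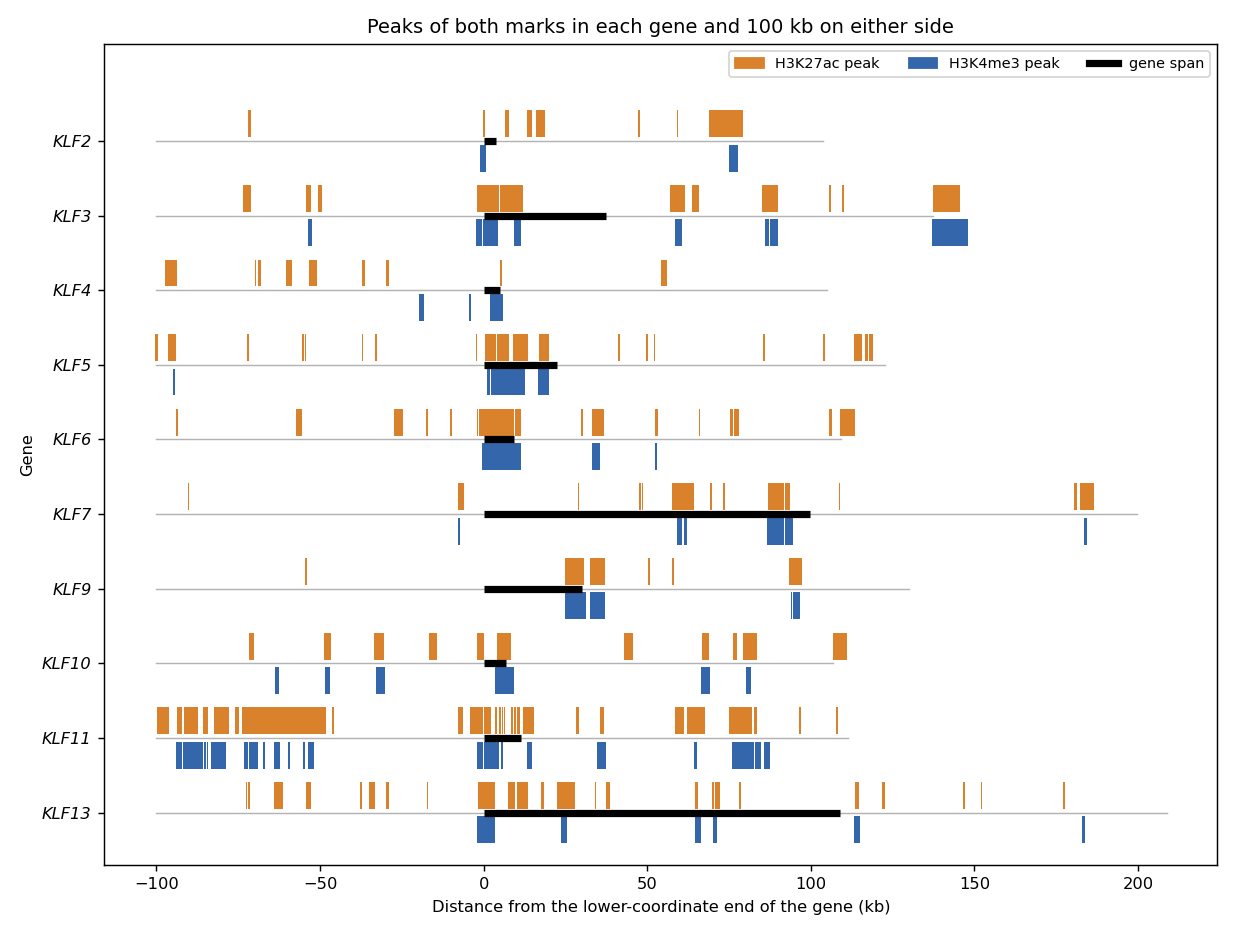
H3K27ac (orange, above the line) and H3K4me3 (blue, below) peaks in each KLF gene (black bar) and the 100 kb on either side (grey line), in kb from the lower-coordinate end of the gene. KLF11 has 33 H3K27ac peaks, many of them 50 to 100 kb to the left over GRHL1, and KLF9 has 6.

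Neighbouring genes took a different part of each window. The KLF11 window holds GRHL1, an epithelial transcription factor gene, CYS1 and RRM2, a ribonucleotide reductase gene. Its widest H3K27ac peak, 19273 bp at 9976129 to 9995401, lay in GRHL1, and RRM2 had a peak of 5163 bp, both at 3100. At KLF2 the widest H3K27ac peak, 10305 bp at 16393865 to 16404169 with a score of 3100, lay inside EPS15L1 and made up 57.3% of the summed H3K27ac peak length. The KLF3 window reached only the edge of a peak of 8240 bp at the end of TLR1, at 38801486 to 38809725, with 32 bp of it inside. KLF4, KLF6 and KLF7 had no other protein-coding gene in their windows. In a comparison chosen after these values were seen, leaving out peaks in or within 2.5 kb of other protein-coding genes took KLF11 from 33 peaks and 77941 bp to 15 peaks and 23771 bp. KLF2 fell to 5 peaks and KLF5 to 15. KLF13, with 22 peaks and 33955 bp, then led the genes in both number and length. Its window was also the longest of the 10, at 308831 bp, and these values are not per length. With all peaks kept, H3K27ac covered 11.5% of the KLF13 window, against 13.8% at KLF6, which lost no peak here.

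KLF5, as the basal epithelial member, was not the most acetylated of the family by length. H3K27ac peaks covered 28678 bp of its window, which put it in place 5 of 10, after KLF11 (77941 bp), KLF13 (35487 bp), KLF3 (31501 bp) and KLF6 (28852 bp), and before KLF10 (26211 bp), KLF7 (24011 bp), KLF2 (17977 bp), KLF9 (16167 bp) and KLF4 (13339 bp). As a share of the window, which is longer for longer genes, H3K27ac covered 12.9% at KLF5, 36.9% at KLF11, 13.8% at KLF6 and 6.51% at KLF4, and the median of all protein-coding genes was 5.31%. Of the length at KLF5, 51.9% lay within the gene, against 65.8% at KLF7 and 58.5% at KLF13, which are longer genes, 31.9% at KLF6, 8.82% at KLF11, 2.63% at KLF2 and none at KLF4. No spread between libraries is known, so near neighbours in this order such as KLF5 and KLF6 cannot be told apart.

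KLF5 did hold many small acetylated sites without H3K4me3. Counting H3K27ac peaks that lay over 2.5 kb from any annotated gene end and off H3K4me3, there were 16 at KLF13, 13 at KLF5, 12 at KLF11, 9 at KLF4, 8 at KLF7, 7 at KLF6, 6 at KLF2, 5 at KLF10 and 3 each at KLF3 and KLF9. KLF5 stood at percentile 96.0 for this number and KLF13 at 98.1, and the median over all genes was 3. These counts are not per length, and the window was 308831 bp at KLF13, 222563 bp at KLF5 and 211287 bp at KLF11. The sites at KLF5 were narrow and weak, with medians of 588 bp in width and 43.9 in score, and 11 of 13 scored below 100. Over the whole H3K27ac list the medians were 865 bp and 65.0. The strongest, at 72958394 to 72959644 with a score of 173, lay in the neighbouring gene PIBF1, as did 5 of the 13 in all. With a score of at least 100 required, KLF5 kept 8 of its 22 H3K27ac peaks.

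Over the family, 62 of the 82 such sites scored below 100 (median of the whole H3K27ac list 65.0) and 3 scored at least 1000. Of these 3, KLF13 had a site at 31262931 to 31265573 (2643 bp, score 2816), 61262 bp outside the gene, and another inside it at 31336997 to 31340556 (3560 bp, score 1239). The other was at KLF10, at 102755703 to 102759739 (4037 bp, score 1373), which began 99978 bp from the gene, with 23 bp inside the window. KLF4 had its strongest H3K27ac peak of all kinds at such a site, at 107431428 to 107433854 (2427 bp, score 687), 50998 bp from the gene. All 8 sites of KLF7 and all 3 of KLF9 scored below 100. Peaks also lay just outside the 100 kb: the nearest to KLF5 were 105107 bp below the gene (score 44.0) and 157267 bp above it (score 501), and the outermost inside were 99584 bp below (score 43.9) and 95161 bp above (score 131).

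**Figure D4:**
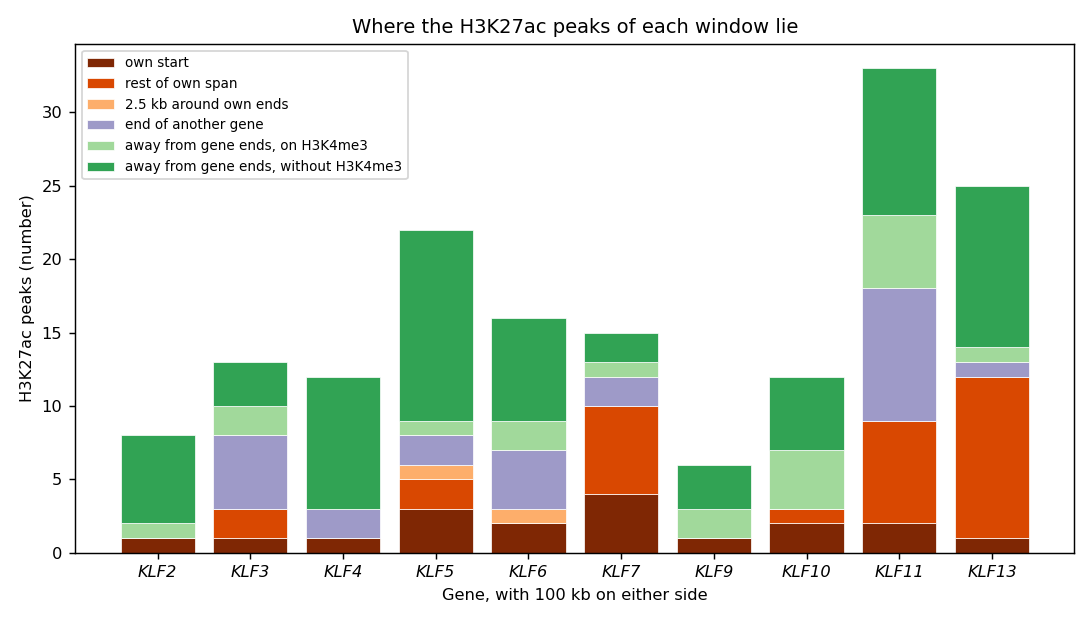
Number of H3K27ac peaks in each KLF gene and the 100 kb on either side, stacked by place: the gene's own start, the rest of its span, the 2.5 kb around its own ends, the ends of other genes, and sites away from gene ends with and without H3K4me3. In the last class KLF5 has 13 peaks, KLF13 11 and KLF11 10; KLF13 also has 11 peaks in the rest of its span and KLF7 6.

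Strong sites with both marks away from the starts were found at several KLF genes. KLF3 had 4498 bp of H3K27ac at 38721319 to 38725816 (score 2557), 19802 bp beyond the gene, with H3K4me3 of score 323 in it. KLF7 had 4395 bp at 207256382 to 207260776 (score 3100), 82531 bp from the gene by the lncRNA gene LINC01802. KLF10 had 3274 bp at 102615199 to 102618472 (score 2926), 30312 bp from the gene. At KLF6 a peak of 4345 bp at 3885074 to 3889418 (score 3100) began 99865 bp from the gene, so that 136 bp of it lay in the window, and the H3K4me3 that it overlaps lay outside. Nearer to KLF6 were 3786 bp at 3809073 to 3812858 (score 3043), by the end of an uncharacterised gene, LOC105376364. Outside its span KLF5 had 1 shared site away from gene ends, at 72959672 to 72961053, which scored 144. Inside the gene, its H3K27ac peaks at 73063837 to 73068648 (score 273) and 73071974 to 73074954 (score 285) also lay on H3K4me3.

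The genes whose pattern was most like that of KLF5 were sought among all protein-coding genes, by the distance between percentiles of 4 measures from the 2 libraries: H3K27ac and H3K4me3 length at the start, and bases covered by each mark in the window. The nearest were XPO1, a nuclear export receptor gene (distance 3.02 percentile points), KLF6 (3.03), CD24, a surface marker gene of epithelial progenitors (3.07), ID4, an inhibitor of helix-loop-helix factors (3.29), and SOX4 (4.64). KLF3 was next among the family at 7.05, at place 19 of all genes, followed by KLF10 (10.9), KLF7 (12.9), KLF13 (17.5), KLF9 (22.9) and KLF11 (47.7). KLF4 (72.7) and KLF2 (91.6) were the most distant. Every gene was compared in 1 cell line only, and like lengths say nothing of shared control.

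The rest of the family was less uniform. Of 17 other KLF and SP genes, 9 carried both marks at a start, 5 H3K4me3 only and 3 neither, against background shares of 57.7%, 12.3% and 27.8%. SP1 (H3K27ac score 1038), SP2 (1848), SP3 (3100) and SP4 (1461) carried both. So did KLF12 (754), which encodes a CtBP-binding repressor and lies near KLF5 on chromosome 13. The others with both were KLF16 (1112), KLF8 (82.9), the osteoblast factor gene SP7 (198) and the erythroid factor gene KLF1 (1291). KLF1 lies among many marked neighbours, with 32.5% of its window under H3K27ac. H3K4me3 alone was found at KLF14 and KLF15 and at the developmental genes SP5, SP8 and SP9. KLF17, known from the early embryo, KLF18 and SP6, a tooth and skin factor gene, carried neither at their starts, although SP6 had 3 H3K27ac and 2 H3K4me3 peaks in its span. SP3 was the only one of the 17 with an H3K27ac score of at least 3100 at the start.

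Of 28 genes of KLF cofactors and regulators, 24 carried both marks, 2 H3K4me3 only and 2 H3K27ac only, beside 57.7% with both, 12.3% and 2.27% of all protein-coding genes. The corepressor genes had both in 7 of 8, with H3K27ac scores of 3100 at CTBP1, CTBP2 and SIN3A and 442 at HDAC1. CTBP2 had 52115 bp of H3K27ac summed over its starts and 42 H3K27ac peaks in its window. SIN3B had H3K27ac only at the start (score 44.0), with 1 H3K4me3 peak in its span. Among acetyltransferase genes EP300 scored 3100 and CREBBP 764, and KAT2B had H3K4me3 only. All 5 ubiquitin ligase genes carried both, WWP1 (2986) and FBXW7 (1157), whose products are known to target KLF5, among them. Of 12 upstream regulators 10 carried both, MAPK7 (759) and MEF2A (973) of the pathway that drives KLF2 in endothelium among them. MEF2C scored 33.0, and MEF2D had H3K27ac only at the start, with 2 H3K4me3 peaks in its span. The glucocorticoid receptor gene NR3C1 (999) and the thyroid hormone receptor gene THRA (560), known to drive KLF9, carried both. Of the TGF-beta receptor genes, TGFBR1 had H3K4me3 only, and TGFBR2 scored 31.3. The SMAD genes of the same list, SMAD2 (3100), SMAD3 (612) and SMAD4 (1419), all carried both marks.

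Known target genes of KLF factors carried both marks in 10 of 15, near the 57.7% of all protein-coding genes. The cyclin gene CCND1, the cell cycle inhibitor gene CDKN1B, the E-cadherin gene CDH1, KRT19 and SMAD7 all had H3K27ac scores of 3100, and PDGFA scored 893. FGFBP1, a growth factor carrier gene known as a KLF5 target in breast cells, scored 484. CDKN1A, a target of KLF4 and KLF6, had H3K4me3 only at its start. Of the endothelial targets of KLF2, NOS3 carried neither mark, THBD had H3K4me3 only, and S1PR1 had both with an H3K27ac score of 89.4. IVL, a gene of terminal differentiation in skin, carried neither.

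Markers of the labelled cell type were read in the same way. Luminal epithelial genes carried both marks in 7 of 8, with H3K27ac scores of 3100 at EPCAM, 209 at GATA3, 110 at ESR1 and 44.8 at FOXA1. KRT8 had H3K27ac only at the start, with 3 H3K4me3 peaks in its span. Both marks were found at 4 of 7 basal genes, again near the share of all protein-coding genes, with KRT5 at an H3K27ac score of 3100. At the start KRT14 scored 47.3 with no H3K4me3, and KRT17 had H3K4me3 only. TP63 had neither at a listed start, but 6 H3K27ac and 3 H3K4me3 peaks in its span. None of 5 endothelial, 4 macrophage, 4 lymphocyte and 5 fibroblast genes carried both marks. The single-mark exceptions among these were CLDN5, CD14 and COL1A1, with H3K4me3 only.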

How the data were processed

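Peaks of 1 H3K27ac and 1 H3K4me3 library of HCC1599 cells were used; the input was not analysed here. Per the submitters' processing notes, the authors' tools were Bowtie2 and MACS 1.4, on build hg38; parameters were not given in the sources used here. The authors deposited a position and a score for each peak. The score has no stated scale, ran from 30 to 3233, piled up at 3100, and was used only to describe peaks within a list. Chromatin was cut by sonication and micrococcal nuclease, per the labels' protocols, so that gaps between peaks depend on digestion and on peak calling. Positions are counted from 1 in hg38. Gene spans, starts and promoter windows came from RefSeq tables of GRCh38.p14, which had a start for 15812 of 19974 protein-coding genes; the other genes were read at either end. Exons were not used here. Overlap meant at least 1 bp. Covered lengths were clipped to the window of 100 kb around the gene, and peak counts were not. Percentiles are among all protein-coding genes, those without a peak included, with ties at their midpoint.

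Genes named were the 10 members, the other family genes of each state (at most 6 of a state in list order), the first 4 of each state among partner genes, the genes nearest to KLF5, and neighbours at the strongest or widest peaks; further family, partner and marker genes were named after their values were seen. The members and lists were chosen with earlier results of these data known. The interval functions were tested on simulated data. Python 3.11.15, numpy 2.4.6, pandas 2.3.3 and matplotlib 3.10.9 were used. Alternatives were other score minimums, flanks, start windows, gene ends, distances and overlaps, and merging of peaks under 500 bp from each other. Leaving out peaks at other protein-coding genes, and distance from every listed start, were added after seeing the data. The values of 1 target gene are not reported here.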

Additional observations from a re-analysis of the deposited data

How the results depend on the processing

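The number of KLF genes with both marks at a start, 10 of 10, was also 10 with scores of at least 50 and with windows of 500 bp or 2.5 kb. It was 8 with scores of at least 100 (KLF2 and KLF4 lost H3K27ac) and 9 with either annotated end in place of listed starts (KLF7 had neither mark). Counts of weak peaks depend on the score. With scores of at least 50 there were 107 H3K27ac peaks in the windows in place of 162, 44 sites away from gene ends without H3K4me3 in place of 82, and 22955 bp of H3K27ac at KLF5 in place of 28678. With scores of at least 100 these were 73 peaks, 27 sites and 20819 bp, and there were 42 H3K4me3 peaks in place of 70. Flanks of 50 kb gave 96 H3K27ac peaks, 38 H3K4me3 peaks, 40 sites, 17774 bp at KLF5 and place 6 of 10 for KLF5 by length in place of 5. Flanks of 200 kb gave 275, 116, 144, 34224 bp and place 7. Without peaks in or within 2.5 kb of other protein-coding genes KLF5 had 23597 bp and place 7. KLF5 kept place 5 with scores of at least 50 or 100. Merging of near peaks, 5 kb from gene ends, ends of protein-coding genes only, 50% of a peak covered, and distance from every listed start left the number of sites between 61 and 93. No paired analysis was possible because each mark had 1 library. Read depth is unknown, so it is not known how many weaker peaks were missed.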

Other observations

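Beyond the 100 kb windows, the stretches between each KLF gene and its nearest protein-coding neighbours, cut at 1 Mb, were read after the values above had been seen. KLF5 and KLF12 lie beside each other on chromosome 13 with 608550 bp between their spans, and this stretch held 43 H3K27ac peaks and 5 H3K4me3 peaks. The strongest H3K27ac peak there, at 73463750 to 73468457, was 4708 bp wide, scored 2562, had no H3K4me3 and lay 386212 bp from KLF5. The H3K27ac length per 100 kb away from KLF5 was 7828, 3246, 6582, 13633, 5709 and 7162 bp in the 6 steps out to 600 kb, so that the step from 300 to 400 kb held more than the step next to the gene. The stretch below KLF5, 38514 bp to PIBF1, held 3 peaks, none scoring above 45.4.

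KLF6 and KLF4 also border long stretches without other protein-coding genes. Below KLF6, 455185 bp held 37 H3K27ac peaks, 6 of them scoring at least 1000, and one of those at 3100 was 12813 bp wide, at 3463954 to 3476766, on H3K4me3 and 299230 bp from the gene. Above KLF6, 1 Mb held 50 H3K27ac peaks, again with 6 scoring at least 1000. Above KLF4, 1 Mb held 29 H3K27ac peaks, of which 1 scored at least 1000, at 108048166 to 108050101 (score 1186, no H3K4me3), 558397 bp from the gene. Below KLF4 a peak of 4240 bp with H3K4me3 scored 2960 at 145652 bp from the gene. The stretch between KLF10 and AZIN1 held 10 H3K27ac peaks that made up 22.3% of its 170576 bp.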
